A study of Mus musculus with 4 samples.

Results

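Guanylate-binding proteins (GBPs) and immunity-related GTPases (IRGs) are 2 families of enzymes that cleave GTP and that interferons switch on in many cell types. Described here are 10 of their genes in stimulated mouse CD4+ T cells, 7 GBP genes (Gbp2, Gbp3, Gbp4, Gbp5, Gbp6, Gbp7 and Gbp9) and 3 IRG genes (Igtp, Irgm1 and Ifi47). They were chosen by name, as the rows of the deposited table that carry these symbols, and all 10 were found among its 16142 genes. The values are FPKM, a read count divided by the length of the gene and the size of the library, so levels can be compared between genes. All 10 had a mean of at least 1 FPKM, the level below which genes were not tested, and each of them passed it in both groups.

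RNA-seq compared 2 libraries of CD4+ T cells from wild-type B6 mice (WT) with 2 libraries from Cd4CreERT2 LSL-R111A fl/fl mice (R111A). Regnase-1, encoded by Zc3h12a, is an RNase that degrades immune mRNAs, and the R111A mutant lacks the site at which the protease MALT1 cleaves it. The mutant was inserted with EGFP into the Rosa26 locus under the CAG promoter, behind a stop cassette that is removed in Cd4-expressing cells by Cre-ERT2 once tamoxifen is given, here by i.p. injection at 75 mg/kg over 5 days. Untouched CD4+ cells were isolated from spleens with magnetic beads, sorted by FACS, and given anti-CD3 (5 µg/mL) plus anti-CD28 (1 µg/mL) for 12 h. The R111A cells therefore differ from the WT cells by Cre-ERT2, EGFP and a strong foreign promoter as well as by the mutation, and the effects of these cannot be told apart in the present design. WT controls of other assays in the study received tamoxifen too, and the protocol for these libraries can be read in the same way or as treatment of the R111A mice only, in which case tamoxifen would be a further difference. The study describes mice of both sexes at 6 to 12 weeks and a first gate on GFP for strains with that reporter, in general terms and not for these libraries, so the gates may differ between the groups as well.

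In the canonical pathway, interferon-γ binds the receptor chains IFNGR1 and IFNGR2 and acts through JAK1 and JAK2 on genes with GAS elements in their promoters. Type I interferons act through IFNAR1, IFNAR2, JAK1 and TYK2 on a complex with STAT2 and IRF9 that binds ISRE elements, which IRF1 also recognizes. GBPs and effector IRGs are best known from macrophages and fibroblasts, where they gather on the vacuoles of intracellular pathogens and break them, while the regulatory IRGs (Irgm1, Irgm2 and Igtp) keep the effectors inactive on the membranes of the cell itself, and Irgm1 is also known for the survival of CD4+ T cells exposed to interferon-γ.

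The summed FPKM were 801475 for WT replicate 1, 836143 for WT replicate 2, 1053551 for R111A replicate 1 and 1012215 for R111A replicate 2. Since these sums are unequal, the fold changes of the tested GBP and IRG genes are also given after rescaling to TPM, a unit that sums to the same total in each library. How many reads lie behind a value is unknown, but steps among low values put the depth of WT replicate 1 at 1.00, 1.06 and 1.19 times that of WT replicate 2, R111A replicate 1 and R111A replicate 2. Nothing in the labels says whether the libraries of a group come from separate mice, so the p-values measure only the spread between these samples, which may be technical. The WT replicates lay closer together than the R111A replicates, with an SD of their log2 ratio of 0.124 against 0.316 over the 1938 genes that average 50 FPKM or more.

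The labels were first checked against the data. Zc3h12a was listed at 17 and 15.7 FPKM in WT against 196 and 131 FPKM in R111A, so both R111A libraries lay far above both WT libraries. The 9 markers of CD4+ T cells, of which Cd3g was the most abundant, summed to 2115 and 2107 FPKM in WT and to 1765 and 1625 FPKM in R111A. Of these 9, 1 was higher and 5 were lower in R111A at an adjusted p under 0.05, beside 21.2% and 32.1% of all genes tested. In TPM these counts were 0 and 7, beside 1335 and 5096 of all 9831 genes tested, and with no filter on low genes they were 1 and 2. Among the lower genes was Cd4 itself, at 158 and 131 FPKM in WT against 70.7 and 51.4 FPKM in R111A.

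Markers of other cells also moved with the group. The 9 myeloid markers summed to 2.27 and 0.95 FPKM in WT and to 15.3 and 12.2 FPKM in R111A, with Cd68 the most abundant. Only 2 of these 9 markers (Cd68 and Lyz2) reached a mean of 1 FPKM and both were higher in R111A, but Lyz2, with a WT mean of 0.23 FPKM, could only be tested because it was. Below the filter and so untested, Adgre1 went from a mean of 0.04 to 0.91 FPKM, Fcgr3 from 0.05 to 1.10, Itgam from 0.01 to 0.47 and Itgax from 0 to 0.39 FPKM, whereas the macrophage receptor Csf1r stayed at 0.03 to 0.07 FPKM and Fcgr1 at 0 in all 4 libraries. The 6 B cell markers, led by Cd79a, summed to 2.15 and 1.01 FPKM in WT and to 5.21 and 4.54 FPKM in R111A. The 5 erythroid markers rose from sums of 0.66 and 0.70 FPKM to 12.9 and 13.0 FPKM, nearly all of it Hba-a1, with Hbb-bs at 0 in all 4 libraries. The sums for the other lists were lower in R111A, at 20.4 and 23.8 against 12.0 and 9.44 FPKM for the 5 NK cell markers, at 7.31 and 6.76 against 3.88 and 4.46 FPKM for the 2 CD8+ T cell markers (led by Cd8b1), and at 19.1 and 16.2 against 11.2 and 10.5 FPKM for the 3 regulatory T cell markers. The lower NK sum came from Nkg7, which fell from a mean of 21.1 to 4.29 FPKM, while Eomes, the only other NK marker above the filter, was higher, at a mean of 5.50 against 0.84 FPKM. Like Lyz2, it could only be tested because it was higher. Of the regulatory T cell markers, Foxp3 fell from 10.0 to 2.36 FPKM and Ikzf4 rose from 3.21 to 5.12 FPKM, a call that was lost in TPM (adjusted p = 0.2). The part of these other cells in the results on the GTPase genes was not tested.

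Of the 10 GTPase genes, 7 were higher in R111A, 1 was lower and 2 did not pass the test, at an adjusted p under 0.05 from limma on log2(FPKM + 1). Across the 9831 genes tested, 21.2% were higher and 32.1% were lower by this rule. With the 2-fold threshold of the study added, 4 of the 10 were higher (Gbp3, Gbp6, Gbp7 and Gbp9) and 0 were lower, as also at an unadjusted p under 0.05, against 8.52% and 8.34% of all genes tested. The median log2 fold change was 0.78 over the 10 genes and -0.12 over all genes tested. After rescaling to TPM the median of all genes moved by -0.30 to -0.42, and that of the 10 genes was 0.45, so that the gap between them, which a rescaling of whole libraries can hardly change, was 0.89 before and 0.87 after. By the adjusted p, the counts of the 10 then became 5 higher and 2 lower, beside 1335 higher and 5096 lower of all 9831 genes. Over all genes, the split of 838 higher and 820 lower past both thresholds became 583 and 1749. The smallest two-sided p that an exact permutation test of 2 and 2 libraries can reach is 0.333, and the adjusted p-values therefore draw on the spread pooled across genes. In RNA from a mixture of cells, fewer cells of a type and less RNA per cell cannot be told apart.

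**Figure D1:**
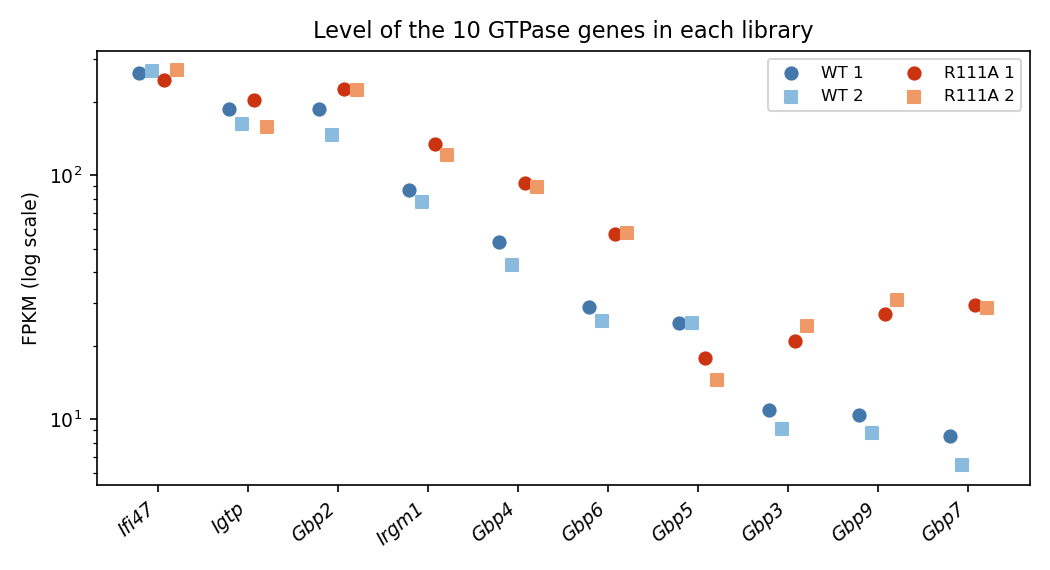
FPKM (log axis) of each of the 10 GTPase genes in the 4 libraries, with genes ordered by their mean in WT; each point is 1 library. Both R111A points lie above both WT points except for Gbp5, where both lie below, and for Ifi47 and Igtp, where the groups overlap. By the adjusted p, 21.2% of all genes tested were higher in R111A and 32.1% were lower.

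The levels of the 10 genes spanned a wide range in WT cells. Ifi47 was the most abundant, with a mean of 265 FPKM and rank 387 of the 9831 genes tested, followed by Igtp at 175 and Gbp2 at 166 FPKM, whose ranges over the WT replicates overlapped. Irgm1 (82.1 FPKM), Gbp4 (47.9 FPKM), Gbp6 (27.0 FPKM) and Gbp5 (24.7 FPKM) came next and did not overlap with their neighbours. The lowest were Gbp3 at 10.0 and Gbp9 at 9.57 FPKM, which overlapped, and Gbp7 at 7.50 FPKM. In R111A cells Ifi47 was again first at 257 FPKM and was followed by Gbp2 at 225 FPKM, but Gbp7 (29.0 FPKM) had moved from the last place to the seventh, where it overlapped with Gbp9 (28.9 FPKM), and Gbp5 was last at 16.2 FPKM. The plot of levels by library shows this as a narrower spread of the red points. Since any scaling of a library cancels in a share, the share of each gene in the summed FPKM of the 10 was also taken. Ifi47, Igtp and Gbp2 together held 74.0% and 74.8% of that sum in the WT libraries and 64.0% in each R111A library. The 7 GBP genes held 37.5% and 34.2% in WT and 44.7% and 46.1% in R111A, so the mix of GTPase transcripts contained more GBP in both R111A libraries than in either WT library.

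Gbp7 (NCBI gene 229900, chr3:142530336-142550151 in GRCm38, the assembly of mm10) changed most among the 10. It stood at 8.52 and 6.48 FPKM in the WT libraries and at 29.4 and 28.5 FPKM in the R111A libraries. The R111A values were close together and far above WT. Its log2 fold change was 1.83 ± 0.16 (SE, adjusted p = 4.3e-05), and 1.53 after rescaling to TPM. Gbp9 (NCBI gene 236573, chr5:105076464-105110357) was listed at 10.4 and 8.80 FPKM in WT against 26.9 and 30.9 FPKM in R111A. The groups did not overlap, and the log2 fold change was 1.50 ± 0.15 (adjusted p = 8.4e-05, 1.19 in TPM). Gbp7 is known for guiding NADPH oxidase and autophagy proteins to vacuoles, while little is known of Gbp9.

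Gbp3 (NCBI gene 55932, chr3:142560016-142573213) was at 10.9 and 9.11 FPKM in WT against 20.8 and 24.0 FPKM in R111A. Both R111A libraries were thus about as far above WT as those of Gbp6 (NCBI gene 100702, chr5:105270702-105295871), which was at 28.8 and 25.3 FPKM in WT against 57.2 and 57.8 FPKM in R111A. On the log2 scale Gbp3 rose by 1.09 ± 0.15 (adjusted p = 5.1e-04) and Gbp6 by 1.06 ± 0.13 (adjusted p = 2.9e-04). Both lie close to the 2-fold threshold and fell under it after rescaling to TPM (0.78 and 0.74) and without WT replicate 2 (0.97 each), which left 2 of the 4 genes past it, although the adjusted p passed in each of these fits. Gbp6 shares 37.3% of its 100-base stretches with other genes of the families, mostly with its neighbour Gbp10, and how the reads were divided between the pair is uncertain. Summed with Gbp10, an alternative chosen after seeing the data, the pair gave a log2 fold change of 1.33 ± 0.13.

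Gbp4 (NCBI gene 17472, chr5:105115767-105139586) was at 53.1 and 42.6 FPKM in WT against 93.2 and 89.7 FPKM in R111A. It rose in both R111A libraries by just under 2-fold, with a log2 fold change of 0.93 ± 0.14 (adjusted p = 9.3e-04, 0.60 in TPM). Gbp2 (NCBI gene 14469, chr3:142620663-142638008), a GBP that restricts Toxoplasma in mice and is anchored to membranes by a lipid, was at 186 and 146 FPKM in WT against 226 and 223 FPKM in R111A. The WT replicates lay farther apart than the nearest libraries of the 2 groups. Its log2 fold change of 0.44 ± 0.15 (adjusted p = 0.032) was no longer past the test in TPM (0.11, adjusted p = 0.55), with no filter on low genes (adjusted p = 0.14), or without WT replicate 2 (0.27, adjusted p = 0.43), R111A replicate 1 (adjusted p = 0.064) or R111A replicate 2 (adjusted p = 0.058). Over its 14 alternatives the adjusted p ranged from 0.0081 to 0.55.

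Gbp5 (NCBI gene 229898, chr3:142496934-142522344), a lipid-anchored GBP known for its part in inflammasome responses, went the other way. It was at 24.8 and 24.7 FPKM in WT against 17.8 and 14.5 FPKM in R111A. Both R111A values were below the WT values, which hardly differed from each other. The log2 fold change was -0.59 ± 0.15 (adjusted p = 0.0092), and -0.91 in TPM (adjusted p = 2.4e-04). The direction was the same under each scaling tried, but the adjusted p rose to 0.10 without WT replicate 1, to 0.096 without WT replicate 2 and to 0.066 with no filter, within a range of 2.4e-04 to 0.10 over its 14 alternatives. Set against the median of all genes, Gbp5 was the only gene of the 10 below it, at -0.48 as deposited and -0.50 in TPM.

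The 3 IRG genes changed less than most of the GBP genes. Irgm1 (NCBI gene 15944, chr11:48865245-48871420), a regulatory IRG, was at 86.9 and 77.3 FPKM in WT against 134 and 121 FPKM in R111A. The groups did not overlap, and its log2 fold change was 0.63 ± 0.13 (adjusted p = 0.0044). It was no longer past the test in TPM (0.30, adjusted p = 0.083) or without WT replicate 2 (0.54, adjusted p = 0.09), which were the only such fits among its 14 alternatives (adjusted p from 2.4e-04 to 0.09). Igtp (NCBI gene 16145, chr11:58199556-58207592), also called Irgm3 and likewise regulatory, was at 187 and 162 FPKM in WT against 204 and 158 FPKM in R111A. The groups overlapped, and the log2 fold change was 0.04 ± 0.16 (adjusted p = 0.84), or -0.29 in TPM (adjusted p = 0.11). Ifi47 (NCBI gene 15953, chr11:49076587-49096987), also known as Irgd and counted among the effector IRGs, was at 263 and 267 FPKM in WT against 245 and 269 FPKM in R111A. Here too the groups overlapped, with a log2 fold change of -0.05 ± 0.12 (adjusted p = 0.76) that turned positive with median-of-ratios factors (0.04) and quantile normalization (0.17) and passed the test as lower only in TPM (-0.38, adjusted p = 0.023). Set against the median of all genes, Igtp lay at 0.16 and Ifi47 at 0.07 as deposited, a distance that a rescaling of whole libraries can hardly change (0.13 and 0.04 in TPM).

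A list of 12 further GBP, IRG and related GTPase genes, which does not hold every relative, was read beside the 10. A mean of 1 FPKM was reached by 9 of them. Past both thresholds in limma, 8 of these 9 were higher in R111A and 0 were lower, beside 8.52% and 8.34% of all genes tested. At an adjusted or an unadjusted p under 0.05 alone, 0 were lower, beside 32.1% of all genes tested by the adjusted p. In TPM 6 were higher past both thresholds and 8 by the adjusted p alone, beside 583 and 1335 of all 9831 genes tested. Their median log2 fold change was 1.60 as deposited and 1.28 in TPM. Gbp8 was at 14.2 and 11.2 FPKM in WT against 47.2 and 58.4 FPKM in R111A (1.98 ± 0.17, adjusted p = 3.9e-05, 1.66 in TPM). Gbp11 rose from 1.07 and 1.08 FPKM to 7.33 and 7.28 FPKM (2.0 ± 0.14, adjusted p = 1.5e-05, 1.80 in TPM and 1.02 at a pseudocount of 5 FPKM), and Gbp10 from 6.40 and 4.85 FPKM to 25.7 and 26.1 FPKM (2.03 ± 0.16, adjusted p = 2.7e-05, 1.74 in TPM). In each of these GBP genes the lower R111A library was more than 3 times as high as the higher WT library. Gbp10 shares 60.9% of its 100-base stretches with other genes of the families, mostly with Gbp6, so its own value is uncertain. Summed after seeing the data, the pair gave a log2 fold change of 1.33 ± 0.13. Gvin1, which encodes a very large interferon-inducible GTPase, rested on single libraries: it was at 29.2 and 4.28 FPKM in WT against 46.8 and 47.6 FPKM in R111A (1.93 ± 0.63, adjusted p = 0.03, 1.63 in TPM), and its log2 fold change was 0.67 without WT replicate 2 and 3.19 without WT replicate 1, while without either R111A replicate the adjusted p was 0.15, and it was 0.22 with robust estimation and 0.30 with no filter. Among them 3 genes were below the filter, namely Gbp2b, at 0.09 to 0.34 FPKM, and Gm4951 and F830016B08Rik, at up to 1.10 and 0.75 FPKM.

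Of the IRG genes outside the 10 that are counted among the effectors, 4 were tested. Each was higher in R111A by the adjusted p, beside 21.2% of all genes tested. Tgtp1 was at 48.0 and 41.8 FPKM in WT against 119 and 128 FPKM in R111A, and Tgtp2 at 36.7 and 34.5 FPKM in WT against 103 and 118 FPKM in R111A, with log2 fold changes of 1.11 and 1.28 in TPM. They share 70.3% and 76.8% of their 100-base stretches, so how the reads were divided between the pair is uncertain. Their sum, taken after seeing the data, was 84.7 and 76.3 FPKM in WT against 222 and 246 FPKM in R111A. Its log2 fold change was 1.53 ± 0.13 (adjusted p = 4.2e-05 from limma). The part of shared reads in the value of either gene was not tested. Iigp1, the effector Irga6, was at 30.9 and 31.2 FPKM in WT against 63.2 and 67.4 FPKM in R111A (1.05 ± 0.13, adjusted p = 2.4e-04, 0.72 in TPM). Gm12250, the gene of Irgb10, was at 15.9 and 13.2 FPKM in WT against 35.5 and 35.4 FPKM in R111A (1.23 ± 0.14, adjusted p = 1.9e-04, 0.92 in TPM). The groups stood apart for each of these 4 genes. Irgm2, the remaining regulatory IRG, was at 27.5 and 23.9 FPKM in WT against 33.0 and 20.2 FPKM in R111A, so that the R111A libraries enclosed the WT libraries. Its log2 fold change of 0.01 ± 0.21 (adjusted p = 0.97) became -0.31 in TPM, -0.33 without R111A replicate 1 and 0.35 without R111A replicate 2 (adjusted p = 0.045). Of these genes Tgtp1 and Tgtp2 were past the 2-fold threshold on either scale, and Iigp1 and Gm12250 only as deposited, with Iigp1 also under it at a pseudocount of 5 FPKM (0.96). The regulators Irgm1, Igtp and Irgm2 and the effector Ifi47 were under it on both scales, and the difference between these sets of genes was not tested. Irgq, a relative that interferons are not known to induce, was at 2.98 and 2.86 FPKM in WT against 3.71 and 3.12 FPKM in R111A (log2 fold change 0.17, adjusted p = 0.35), and its direction turned in TPM (-0.09).

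The position of the genes was then examined, since GBP and IRG genes lie in clusters that arose by duplication. On chromosome 3 the order is Gbp5, Gbp7, Gbp3, Gbp2b and Gbp2, so that Gbp5, which was lower in R111A, lies next to Gbp7, which changed most among the 10. Within a library the ratio of Gbp7 to Gbp5 was 0.344 and 0.262 in WT and 1.65 and 1.97 in R111A. Gbp7 was therefore below Gbp5 in both WT libraries and above it in both R111A libraries, and no scaling of a library can change such a ratio. The ratio of Gbp3 to Gbp5 went from 0.440 and 0.369 in WT to 1.17 and 1.66 in R111A. On chromosome 5 all 6 genes of the cluster (Gbp8, Gbp9, Gbp4, Gbp10, Gbp6 and Gbp11) were higher in R111A, in TPM too, with log2 fold changes from 0.93 to 2.03. The highest was that of Gbp10, whose reads may be shared with Gbp6. By the adjusted p, 21.2% of all genes tested were higher as deposited.

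**Figure D2:**
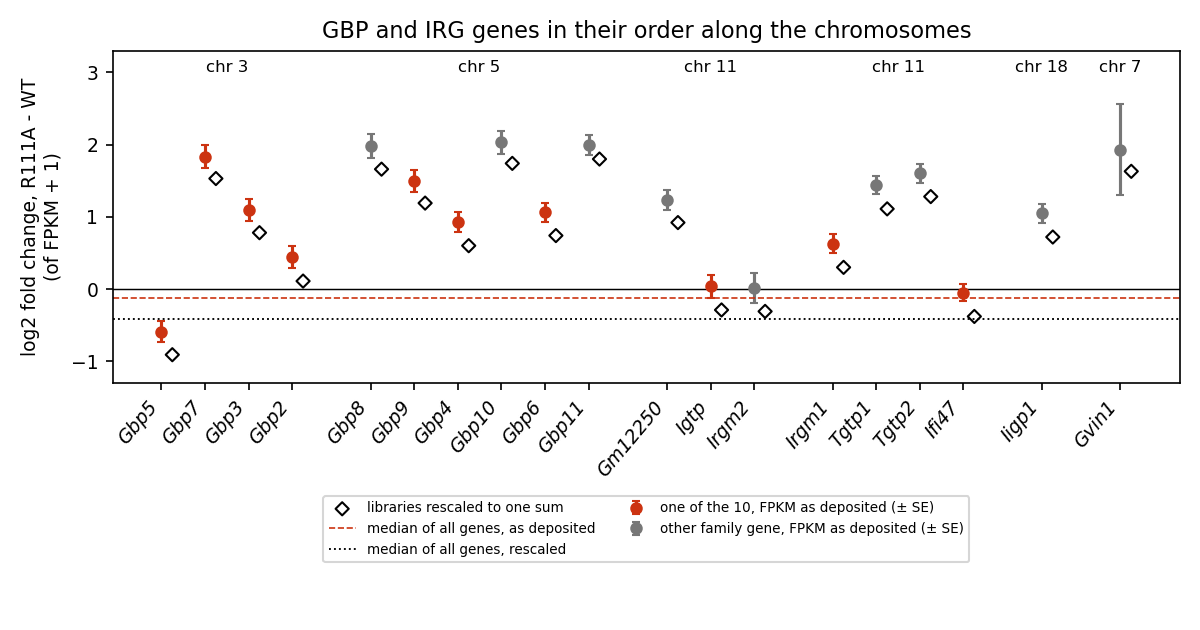
Log2 fold change (R111A against WT, of FPKM + 1) of the 10 GTPase genes (red) and of the other tested family genes (grey), in their order along the chromosomes; bars are ± SE from 2 libraries a group, open diamonds are values after rescaling to TPM, and the dashed and dotted lines are the medians of all genes (-0.12 and -0.42). All 6 genes on chromosome 5 lie above 0 on both scales, whereas on chromosomes 3 and 11 genes with and without a rise lie side by side and Igtp and Irgm2 change sign in TPM.

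Neighbours also differed on chromosome 11. In 1 cluster Gm12250 lies beside Igtp and Irgm2, and the ratio of Gm12250 to Igtp was 0.0850 and 0.0813 in WT and 0.174 and 0.224 in R111A. In the other, the order is Irgm1, Tgtp1, Tgtp2 and Ifi47, and the ratio of Tgtp1 to Ifi47 was 0.182 and 0.156 in WT and 0.485 and 0.477 in R111A. Each ratio was higher in both R111A libraries than in either WT library. The pairs were chosen with the fold changes known, so this direction restates them. Of the 20 genes that flank these clusters and that of chromosome 18 (the first 2 tested on each side of the 5 clusters, chosen after seeing the data), 2 were higher and 6 were lower in R111A by the adjusted p, and Kyat3, the first tested gene beyond Gbp2, fell from 8.63 and 7.75 FPKM to 0.86 and 1.35 FPKM. More of these flanking genes were thus lower than higher, as among all genes tested, of which 21.2% were higher and 32.1% were lower.

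**Figure D3:**
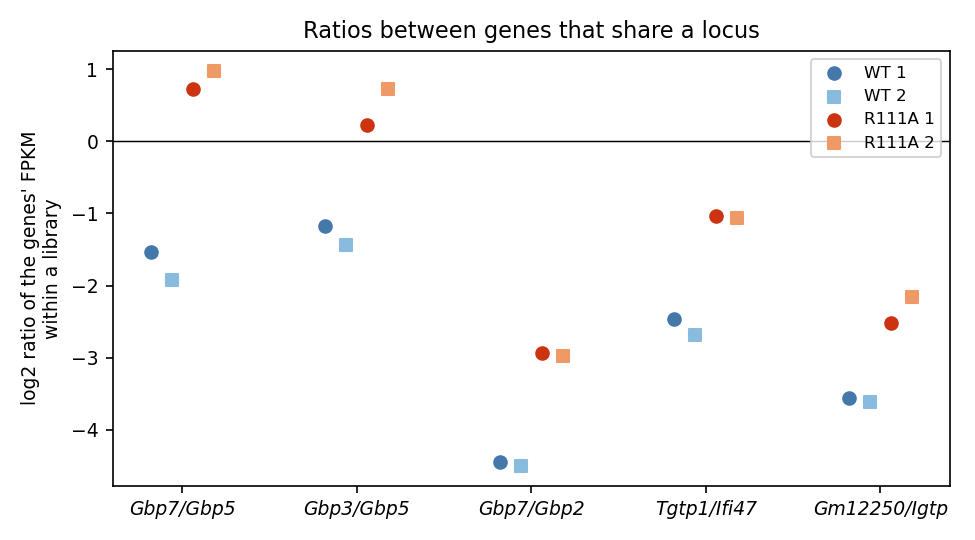
Log2 ratio of the FPKM of gene pairs that share a cluster, within each of the 4 libraries; each point is 1 library, and 0 marks equal FPKM. The pairs were chosen with the fold changes known, and for each of the 5 both R111A points lie above both WT points, and Gbp7/Gbp5 and Gbp3/Gbp5 cross 0.

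Since 7 of the 10 genes rose together while others did not, their promoters were compared. RefSeq promoter windows of GRCm38.p6, which run from 250 bases before to 50 bases after a start, were present for 7 of the 10 genes; Gbp4, Gbp6 and Gbp9 had none. Each window was searched for the GAS motif TTCNNNGAA, which reads the same on both strands, and for the ISRE core GAAANNGAAA on both strands, where it reads TTTCNNTTTC on the other strand, and overlapping matches were all counted. Among 32851 windows of all genes, 8.30% held the GAS motif, 3.44% the ISRE core and 0.454% both. Of the 7 genes, 3 held the GAS motif (Gbp5, Gbp7 and Igtp), 6 held the ISRE core and the same 3 held both, while the window of Ifi47 held neither. The stretches before the starts of Gbp5, Gbp7, Gbp3, Gbp2 and Irgm1 are given 5′ to 3′ on the strand of the gene, with GAS and ISRE matches in capitals, because they set the gene that was lower beside genes that rose.
Gbp5 (chr3:142496824-142496933, + strand): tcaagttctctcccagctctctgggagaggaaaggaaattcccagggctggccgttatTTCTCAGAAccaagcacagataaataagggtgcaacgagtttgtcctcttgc
Gbp7 (chr3:142530226-142530335, + strand): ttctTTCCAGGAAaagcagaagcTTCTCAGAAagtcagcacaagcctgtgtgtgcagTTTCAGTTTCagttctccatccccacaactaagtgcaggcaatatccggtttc
Gbp3 (chr3:142559934-142560015, + strand): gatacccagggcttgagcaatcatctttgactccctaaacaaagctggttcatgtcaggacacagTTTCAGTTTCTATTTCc
Gbp2 (chr3:142620553-142620662, + strand): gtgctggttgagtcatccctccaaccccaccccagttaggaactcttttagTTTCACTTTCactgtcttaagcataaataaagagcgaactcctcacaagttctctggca
Irgm1 (chr11:48871421-48871530, - strand): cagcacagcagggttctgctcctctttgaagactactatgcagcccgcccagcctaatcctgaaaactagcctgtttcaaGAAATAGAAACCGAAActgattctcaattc

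The printed stretch of Gbp5 holds a GAS match that begins 52 bases before the start and no ISRE core, which in this gene lies farther out, at 165 bases, with another GAS match still farther from the start, at 245 bases. Gbp7 has GAS matches at 106 and 87 bases and an ISRE core at 53 bases before the start. These distances are counted from the start on which each window is set, which in Gbp3 lies inside the gene as placed by the coordinates above, so that its printed stretch ends before that start. Gbp3 and Irgm1 each have a pair of overlapping ISRE cores, at 45 and 39 bases and at 30 and 24 bases. Gbp2 has a single core at 59 bases. Another window of Gbp3, at chr3:142560106-142560405, held neither motif. The genes with an ISRE core within 110 bases before the start therefore include Gbp7, Gbp3, Irgm1 and Gbp2, which rose, and Igtp, which did not pass the test. A match is a description of the letters, not a bound site.

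The IRG clusters of chromosome 11 share a tighter arrangement, in which a GAS match is followed 2 bases later by an ISRE core. Only 5 of the 32851 windows hold it, and they belong to Igtp, Irgm2, Tgtp1, Tgtp2 and Gm12185, a gene inside the cluster of Irgm1. The arrangement is printed for Igtp and 3 relatives, 5′ to 3′ on the strand of the gene with both motifs in capitals, because 2 of these genes rose and 2 did not.
Igtp (chr11:58199508-58199534, + strand): catTTCTAGGAActGAAACTGAAAgct
Irgm2 (chr11:58214899-58214925, + strand): catTTCCAGGAActGAAACTGAAAgct
Tgtp1 (chr11:48992311-48992337, - strand): catTTCCAGGAAtcGAAACTGAAAcct
Tgtp2 (chr11:49064270-49064296, - strand): catTTCCAGGAAtcGAAACCGAAAcct

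Igtp and Irgm2, whose groups overlapped, and Tgtp1 and Tgtp2, which rose by 1.44 ± 0.13 and 1.60 ± 0.13 on the log2 scale, thus carry nearly the same pair of motifs. The GAS match begins 45, 75, 88 and 81 bases before the start in Igtp, Irgm2, Tgtp1 and Tgtp2. Gm12185 rose from 2.39 and 2.35 FPKM to 5.13 and 5.84 FPKM (0.94 ± 0.14, adjusted p = 7.6e-04). The arrangement was thus present in 3 genes that rose and in 2 whose groups overlapped.

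**Figure D4:**
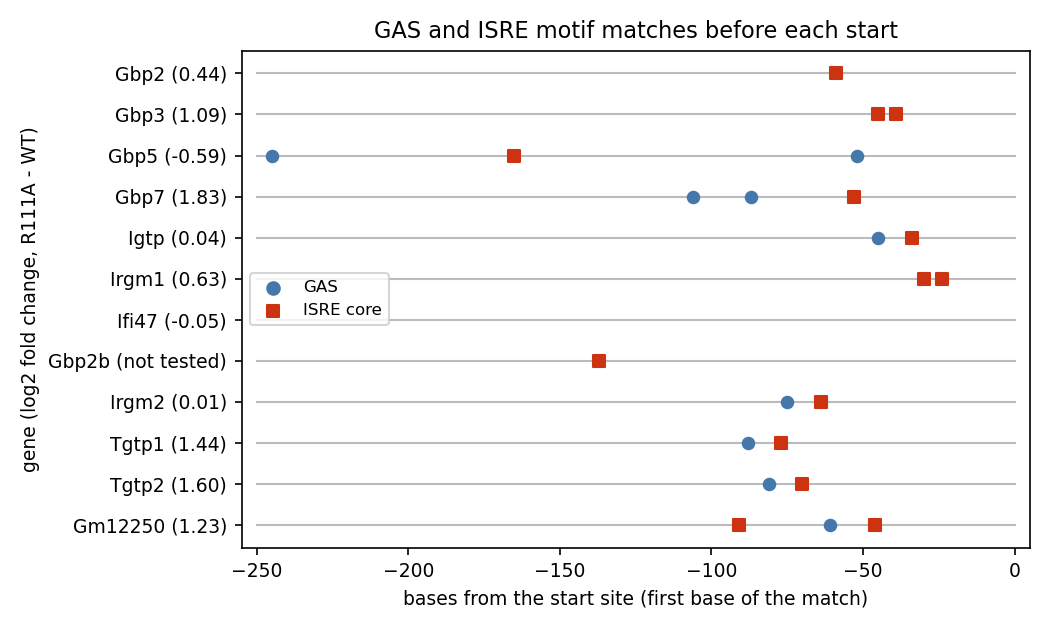
Positions of GAS and ISRE core matches in the 250 bases before the start of each GBP or IRG gene with a RefSeq promoter window, as bases from the start to the first base of the match, with the log2 fold change of the gene in brackets. The pair of a GAS and an ISRE match 11 bases apart recurs in Igtp, Irgm2, Tgtp1 and Tgtp2, and the line of Ifi47 carries no match.

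The steps of the interferon pathway were then followed from the ligand to the targets. Of the 3 ligand genes listed, only Ifng was in the table. Ifng was at 17.3 and 16.1 FPKM in WT against 7.20 and 7.30 FPKM in R111A. Both R111A libraries thus held less than the lower WT library, and the log2 fold change was -1.10 ± 0.14 (adjusted p = 2.7e-04). Of the 4 receptor genes, Ifngr1 was higher, Ifngr2 was lower and Ifnar1 and Ifnar2 did not pass the test, although Ifnar2 passed as lower in TPM (-0.52, adjusted p = 0.018). Ifngr1, the chain that binds interferon-γ, went from 19.1 and 19.2 FPKM to 71.8 and 57.2 FPKM (1.70 ± 0.15, adjusted p = 4.6e-05). Ifngr2, the signalling chain that often limits the response of T cells, went from 17 and 17.5 FPKM to 11.4 and 7.07 FPKM (-0.87 ± 0.20, adjusted p = 0.0066, but 0.12 with no filter, and a log2 fold change of -0.56 without R111A replicate 2). The chains of 1 receptor differed more in R111A, from a ratio of Ifngr1 to Ifngr2 of 1.12 and 1.09 in WT to 6.32 and 8.10 in R111A. Ifnar1 was at 10.2 FPKM in each WT library and at 12.6 and 13.5 FPKM in R111A (adjusted p = 0.068). Without R111A replicate 1 or 2 its adjusted p was 0.02 or 0.046, with median-of-ratios factors or quantile normalization 0.03 or 0.035, and in TPM 0.90.

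The list of JAK, STAT and IRF genes also held Cebpb, which belongs to none of these families, and 10 of its genes were tested. Of the 10, 3 were higher (Stat2, Irf2 and Irf9) and 3 were lower (Tyk2, Irf8 and Cebpb), beside 21.2% and 32.1% of all genes tested (1335 and 5096 of 9831 in TPM). The median log2 fold change of -0.08 turned positive after quantile normalization (0.15), with the filter at 5 FPKM (0.11), with median-of-ratios factors and without R111A replicate 2 (0.01 each). It was -0.41 in TPM and -0.18 without R111A replicate 1. Stat2 was at 5.65 and 4.64 FPKM in WT against 14.9 and 10.5 FPKM in R111A (1.15 ± 0.19, adjusted p = 0.0011, but 0.061 with no filter), and its partner Irf9 at 21.7 and 22.5 FPKM in WT against 37.3 and 32.4 FPKM in R111A (0.63 ± 0.14, adjusted p = 0.005, but 0.082 and 0.056 without WT replicate 1 and 2, and 0.084 in TPM). Both encode parts of the complex that binds ISRE elements, and for both the groups stood apart. Irf1 was at 143 and 132 FPKM in WT against 142 and 91.6 FPKM in R111A, which overlap; its log2 fold change of -0.27 ± 0.20 (adjusted p = 0.28) was -0.60 in TPM (adjusted p = 0.0095) and 0.04 without R111A replicate 2. Irf8 fell most in this group, from 129 and 139 FPKM to 28.5 and 19.9 FPKM (-2.44 ± 0.18, adjusted p = 1.9e-05). Irf2, which can repress ISRE-driven genes, was at 16.8 and 15.1 FPKM in WT against 42.2 and 24.1 FPKM in R111A (0.96 ± 0.23, adjusted p = 0.0083, but 0.15 with no filter, and a log2 fold change of 0.57 without R111A replicate 1). The count of 3 higher was 1 with no filter, and that of 3 lower was 5 in TPM and without R111A replicate 1, and 1 without either WT replicate.

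A list of 9 brakes on JAK-STAT signalling was read next, and not all of these genes are induced by interferon. Of the 9, 2 were higher (0 with no filter) and 4 were lower in R111A, beside 21.2% and 32.1% of all genes tested. Cish, a SOCS family gene, fell most, from 75.5 and 70.2 FPKM to 9.10 and 8.07 FPKM (-2.95 ± 0.14, adjusted p = 3.6e-06). Socs1, which blocks JAKs and is itself induced by interferon-γ, was at 60.1 and 58.4 FPKM in WT against 45.7 and 24.5 FPKM in R111A (-0.81 ± 0.25, adjusted p = 0.024, but 0.08 after quantile normalization and 0.24 with no filter). Its log2 fold change was -1.24 without R111A replicate 1 and -0.37 without R111A replicate 2. The phosphatase genes Ptpn6 and Ptpn11 fell as well, from 152 and 149 FPKM to 58.4 and 55.2 FPKM and from 44.0 FPKM in each WT library to 13.2 and 14.3 FPKM. Ptpn6 had a log2 fold change of -1.39 ± 0.12 (adjusted p = 4.9e-05) and Ptpn11 one of -1.61 ± 0.13 (adjusted p = 3.3e-05), and for both genes each R111A library was below each WT library. Usp18, a brake on the type I receptor and a target of type I interferon, rose from 1.67 and 0.77 FPKM to 6.01 and 4.07 FPKM (1.46 ± 0.23, adjusted p = 9.5e-04, but 0.074 with no filter, and a log2 fold change of 0.69 at a pseudocount of 5 FPKM).

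**Figure D5:**
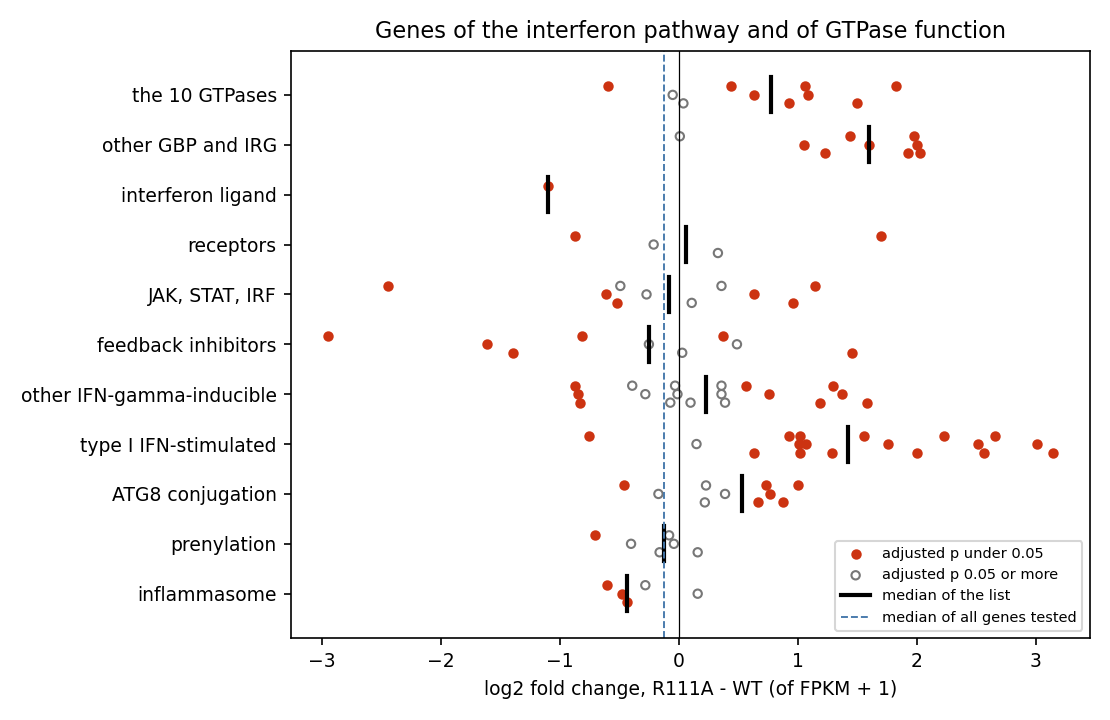
Log2 fold change (R111A against WT, of FPKM + 1) of every tested gene in each list; filled points passed an adjusted p under 0.05, black bars are list medians, and the dashed line is the median of all genes tested (-0.12). The GTPase genes and the type I targets lie mostly to the right of 0, at medians of 0.78 and 1.42 (8 of the 18 type I targets passed the filter only through R111A, and with no filter the median of all 26 is 1.02), while receptors, transducers and other interferon-γ targets lie on both sides.

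Other known targets of interferons were read next. Of 18 tested interferon-γ-inducible genes outside the families, 6 were higher, 3 were lower and 9 did not pass, beside 21.2% higher and 32.1% lower of all genes tested (1335 and 5096 of 9831 in TPM). Their median log2 fold change of 0.23 turned to -0.10 in TPM and to -0.01 without R111A replicate 1. In TPM 5 were higher and 6 lower, with no filter 3 were higher, and without R111A replicate 1 there were 7 lower. B2m went from 1559 and 1518 FPKM to 3652 and 4317 FPKM (1.37 ± 0.13, adjusted p = 7.5e-05), and Cxcl10 from 6.96 and 6.27 FPKM to 19.9 and 15.8 FPKM (1.30 ± 0.16, adjusted p = 2.5e-04). Psmb9, a subunit of the immunoproteasome, fell from 114 and 118 FPKM to 67.0 and 59.3 FPKM (-0.87 ± 0.13, adjusted p = 7.3e-04), and its partner Psmb10 rose from 23.9 FPKM in each WT library to 47.4 and 35.9 FPKM (adjusted p = 0.004, but 0.072 with no filter). Nlrc5 and Tap1 overlapped between the groups, Nlrc5 at 26.3 and 23.5 FPKM in WT against 25.2 and 22.2 FPKM in R111A, and Tap1 at 99.96 and 95.0 FPKM in WT against 116 and 79.2 FPKM in R111A. Of 18 tested genes known from the type I response, 16 were higher, 14 of them past the 2-fold threshold (10 in TPM), and 1 (Bst2) was lower, beside 21.2% and 32.1% of all genes tested, with a median of 1.42. Their levels were low, however, and 8 of the 18 had a WT mean under 1 FPKM and so could only be tested because they were higher in R111A. With no filter the median over all 26 listed was 1.02. At a pseudocount of 5 FPKM, 7 of the 18 were higher past both thresholds and the median was 0.74. At a pseudocount of 0.1 FPKM these values were 15 and 2.16. Ifit3 went from 0.52 and 0.70 FPKM to 13.7 and 12.8 FPKM, Isg20 from 5.70 and 4.44 FPKM to 33.0 and 37.0 FPKM, and Samd9l from 2.63 and 2.43 FPKM to 18.4 and 20.2 FPKM, with the groups far apart in all 3 genes.

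The proteins need partners to reach a vacuole. The ATG8 family and its conjugation enzymes place IRGs and GBPs on membranes, and of its 10 genes 5 were higher (Map1lc3a, Map1lc3b, Gabarap, Gabarapl2 and Atg12) and 1 was lower (Atg7), beside 21.2% and 32.1% of all genes tested. Their median log2 fold change was 0.53, or 0.21 in TPM. On that scale 4 were higher and 2 lower, beside 1335 and 5096 of all 9831 genes tested. Atg7 was lower by a small margin and did not pass without R111A replicate 2, without either WT replicate, with median-of-ratios factors or with no filter. Gabarap, the most abundant, was at 107 and 112 FPKM in WT against 212 and 194 FPKM in R111A (0.88 ± 0.13, adjusted p = 5.7e-04). Prenylation attaches the lipid to GBPs such as Gbp2 and Gbp5, and the 6 genes listed for it include enzymes that act after the attachment. Of the 6, only Pggt1b passed the test, as lower (beside 32.1% of all genes tested), at 10.3 and 11.3 FPKM in WT against 5.36 and 7.34 FPKM in R111A (-0.70 ± 0.17, adjusted p = 0.0081). The count of lower genes was 4 in TPM, and 0 without WT replicate 2 (adjusted p of Pggt1b 0.072) or with no filter (0.096). Of the 8 inflammasome genes, through which GBPs act in myeloid cells, 5 were tested and 3 were lower (Casp4, Pycard and Gsdmd), beside 32.1% of all genes tested. The count of 3 became 4 in TPM, 0 without WT replicate 1 or without WT replicate 2 and 1 with no filter, after quantile normalization or with median-of-ratios factors. Il1b, Il18 and Nlrp3 were at most 0.33, 0.08 and 0.02 FPKM in the 4 libraries.

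The genes outside the lists whose values over the 4 libraries came closest to the mean profile of the 10 were Rnf125, Kidins220, Ccdc130, Kmt2d and Wdr45. Likeness was the root mean square distance between centred log2(FPKM + 1) values, and it was 0.020 to 0.031 for these 5. Rnf125, for example, was at 5.77 and 5.06 FPKM in WT against 9.20 and 9.08 FPKM in R111A. Such a profile was not particular to the 10, as 177 of the 9831 genes tested lay outside the lists and within a distance of 0.1.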

How the data were processed

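PolyA RNA of 2 WT and 2 R111A libraries of stimulated CD4+ T cells was sequenced. The authors removed adaptors and low-quality bases, aligned reads to mm10 with Bowtie2 (version 2.4.4, per the labels) and estimated expression with RSEM (version 1.2.28), and they deposited FPKM values, which do not give counts or the total depth. For their own calls the authors ran DESeq2, which needs counts and could not be rerun on FPKM. Groups and replicate numbers came from the sample labels, and 0 other sample columns were left out.

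Values, as log2(FPKM + 1), went into limma (version 3.58.1, R 4.3.3; lmFit, eBayes with a trend) over the whole table, with p-values adjusted after Benjamini and Hochberg, once genes that average less than 1 FPKM had been removed. Genes were called at an adjusted p under 0.05, alone or with a 2-fold change, the thresholds of the study. A fold change on this scale understates the change of low genes, and each ± is the standard error of the fit. The procedure was tested on simulated data with independent noise of the fitted spread. Such data hold no batch or cell-mixture effect, so the test cannot speak to those. Positions came from RefSeq (GRCm38.p6), in which 16107 of the 16142 NCBI gene IDs were found. Shared 100-base stretches were counted among GENCODE transcripts. Named were all 10 GTPase genes, genes of the lists whose role is described, and the 5 tested genes outside all lists closest to the mean profile of the 10. Some genes of the lists are not reported here. The genes and lists were chosen with earlier results of these data known.

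Alternatives were rescaling to TPM, quantile normalization and median-of-ratios factors, pseudocounts of 0.1 and 5 FPKM, a filter at 5 FPKM or none, a replicate block, eBayes without trend or with robust estimation, no fold threshold, and each library left out in turn. Summing near-identical copies was added after seeing the data. Figures and motif searches used python 3.11.15, numpy 2.4.6, pandas 2.3.3 and matplotlib 3.10.9.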

Additional observations from a re-analysis of the deposited data

How the results depend on the processing

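The counts for the 10 GTPase genes depended on the fold threshold and on the scaling. Past both thresholds, 4 were higher and 0 lower, with 2 higher at a pseudocount of 5 FPKM and 2 in TPM, and with no fold threshold 7 were higher and 1 lower. The 1 lower by the adjusted p was 0 with no filter and 2 in TPM. Their median log2 fold change of 0.78 was 0.99 after quantile normalization and 0.45 in TPM. Over all genes, the 838 higher and 820 lower were 386 and 402 at a pseudocount of 5 FPKM, which compresses fold changes, 521 were higher with the filter at 5 FPKM, which tests fewer genes, 1749 were lower in TPM, and with no fold threshold 2088 and 3152 were called. For the other changes the cause was not tested. With each library left out in turn, where the lone library of a group is assumed to vary like the other group, 2 to 5 of the 10 were higher past both thresholds, 0 to 1 lower by the adjusted p, and the median was 0.66 to 0.90. Among the genes refitted under each alternative, directions turned in Igtp (-0.29 in TPM, -0.14 to 0.22 with a library left out), Ifi47 (0.04 with median-of-ratios factors, 0.17 after quantile normalization, -0.11 to 0.02), Irgm2 (-0.31 in TPM, -0.33 to 0.35), Jak2 (-0.22 in TPM, -0.03 to 0.25) and Irf1 (-0.58 to 0.04). Among the values of single named genes, 640 kept their direction and side of the threshold, 33 lost and 16 gained the call. The replicate block gave 841 higher and 821 lower genes and 4 of the 10 higher. The labels give the groups the same replicate numbers and no pairing, and the deviations of same-numbered libraries, with r = 0.11, cannot settle it with 2 libraries a group. Summing near-identical copies, chosen after seeing the data, left 4 higher. The unknown read depth limits the precision of low values.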

Other observations

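Gvin1 has near relatives on chromosome 7, and 2 of them were read after its uneven values had been seen. Gvin2 was at 0.03 and 3.34 FPKM in WT against 2.95 and 4.47 FPKM in R111A, so the WT library with the lower Gvin1 held more Gvin2. Gvin3 was at 18.9 and 17.4 FPKM in WT against 43.0 and 52.2 FPKM in R111A, with even replicates in both groups (log2 fold change 1.34 ± 0.15, adjusted p = 1.4e-04 from limma). The 3 genes summed to 48.2 and 25 FPKM in WT and to 92.7 and 104 FPKM in R111A, so WT replicate 2 was still the lowest.

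The cluster of Irgm1 on chromosome 11 also holds tested genes outside the lists, read for their position after the data were seen. 9930111J21Rik1 was at 3.98 and 3.32 FPKM in WT against 17.3 and 18.5 FPKM in R111A (2.03 ± 0.15, adjusted p = 1.9e-05), whereas 9930111J21Rik2 was at 0.93 and 1.41 FPKM in WT against 0.77 and 1.57 FPKM in R111A (-0.02 ± 0.20, adjusted p = 0.95). Psme2b went from 6.14 and 2.94 FPKM to 22.2 and 17.8 FPKM (1.98 ± 0.26, adjusted p = 3.8e-04).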
